A study of Mus musculus with 18 samples.

Results

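The lipolysis and lipid droplet proteins described here are encoded by 10 genes: Pnpla2, Lipe, Mgll, Abhd5, Plin1, Plin4, G0s2, Cidec, Cidea and Fabp4. They were chosen by name from the table of read counts, through the GENCODE M21 symbol of each Ensembl identifier, and all 10 were found among the 16452 genes measured. RNA sequencing had been done on whole epididymal white adipose tissue (eWAT), the fat pad beside the testis and epididymis, of wild-type C57BL/6 male mice of a generation named Fm. The groups differ in what the labels say was injected into the zygote from which the mice were sired: a negative control (5 libraries analysed), the microRNA let-7d (6 libraries) or the microRNA let-7e (6 libraries). A control replicate 5 that the labels also describe is not analysed here. Mice of all 3 groups received chow and, from week 6 to week 15, the diet labelled LFD, although the age label gives 24 weeks. The treatment labels of the groups begin with IVF. No label names the sires or litters, so mice of a group may share a parent, and the p-values then measure the spread between these libraries only. The series title names mitochondrial dysfunction of fathers and the heredity of metabolic decline as its subject.

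A fat cell stores triglyceride in a large lipid droplet and releases it by lipolysis, in which fatty acids are cut off in turn. Pnpla2 (adipose triglyceride lipase) removes the first fatty acid, Lipe (hormone-sensitive lipase) acts on the diglyceride that is left, and Mgll (monoglyceride lipase) completes the release of glycerol. Abhd5 activates Pnpla2, and G0s2 inhibits it. Plin1 coats the droplet, holds Abhd5 away from Pnpla2 in the resting cell and releases it on adrenergic stimulation. Plin4 is another droplet coat protein, Cidec and Cidea promote the fusion and growth of droplets, and Fabp4 carries fatty acids in the cytosol.

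The injected molecules are shown first, since they define the groups. The mature 5p strands in RefSeq (GRCm38.p6) are given with the seed, bases 2 to 8, in capitals. The labels do not say which strand was injected.
mmu-let-7d-5p: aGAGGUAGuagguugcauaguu
mmu-let-7e-5p: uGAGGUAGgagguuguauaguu
Both carry the seed GAGGUAG and they differ at 3 of 22 bases, so a seed match is the same for either. They lie at chr13:48536078-48536099 on the minus strand and at chr17:17830366-17830387 on the plus strand. The complement of the seed, CTACCTC, was present in the 3′ UTR of 1 of the 10 genes, against 9.34% of 14059 genes with an annotated 3′ UTR. That gene was Mgll, with the match at position 950 of a 3′ UTR of 2584 bases, and it is shown with the bases around it (GRCm38, chr6:88826715-88826744, plus strand), the match in capitals.
Mgll 3′ UTR site: cagtagcacagCTACCTCtggtggtaggag
A match is a string of letters and not evidence that the site is used. The mice are also not the injected zygotes, and let-7 levels in this tissue are not analysed here.

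All 10 genes were measured in every library, and together they held 2.16% to 4.15% of the counts of a library (median 3.44%). The total count per library ran from 12717365 to 28972306. Levels below are counts-per-million (CPM) after scaling between libraries with trimmed means of M-values (TMM). Even Cidea, the rarest, had at least 45 counts in each library, and the other 9 genes had at least 1655. Ratios between genes further below are of CPM and serve to compare libraries, not the genes themselves. Levels of different genes are set in order here per kilobase of the principal transcript. On that scale Fabp4 stood highest at 17107 ± 3814 CPM per kb (SD, n = 17). It was followed by Cidec at 2889 ± 674, Pnpla2 at 1803 ± 619 and Plin1 at 1000 ± 199 CPM per kb. Fabp4 lay above Cidec in every pair of libraries, whereas the ranges of Cidec, Pnpla2 and Plin1 overlapped with their neighbours. Within each library, Cidec still stood above Pnpla2 and Pnpla2 above Plin1 per kb. Lipe (626 ± 141), Mgll (544 ± 126) and Plin4 (530 ± 114 CPM per kb) could not be ordered beyond their spread. G0s2, the inhibitor of Pnpla2, stood at 265 ± 76.8 and Abhd5, the activator, at 48.4 ± 9.53 CPM per kb, with no overlap between them. Cidea stood lowest at 7.16 ± 7.57 CPM per kb, and 1 library, control 1, sets that SD. With the length of all annotated exons in place of the principal transcript, Fabp4 came to 3415 CPM per kb, still the highest.

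**Figure D1:**
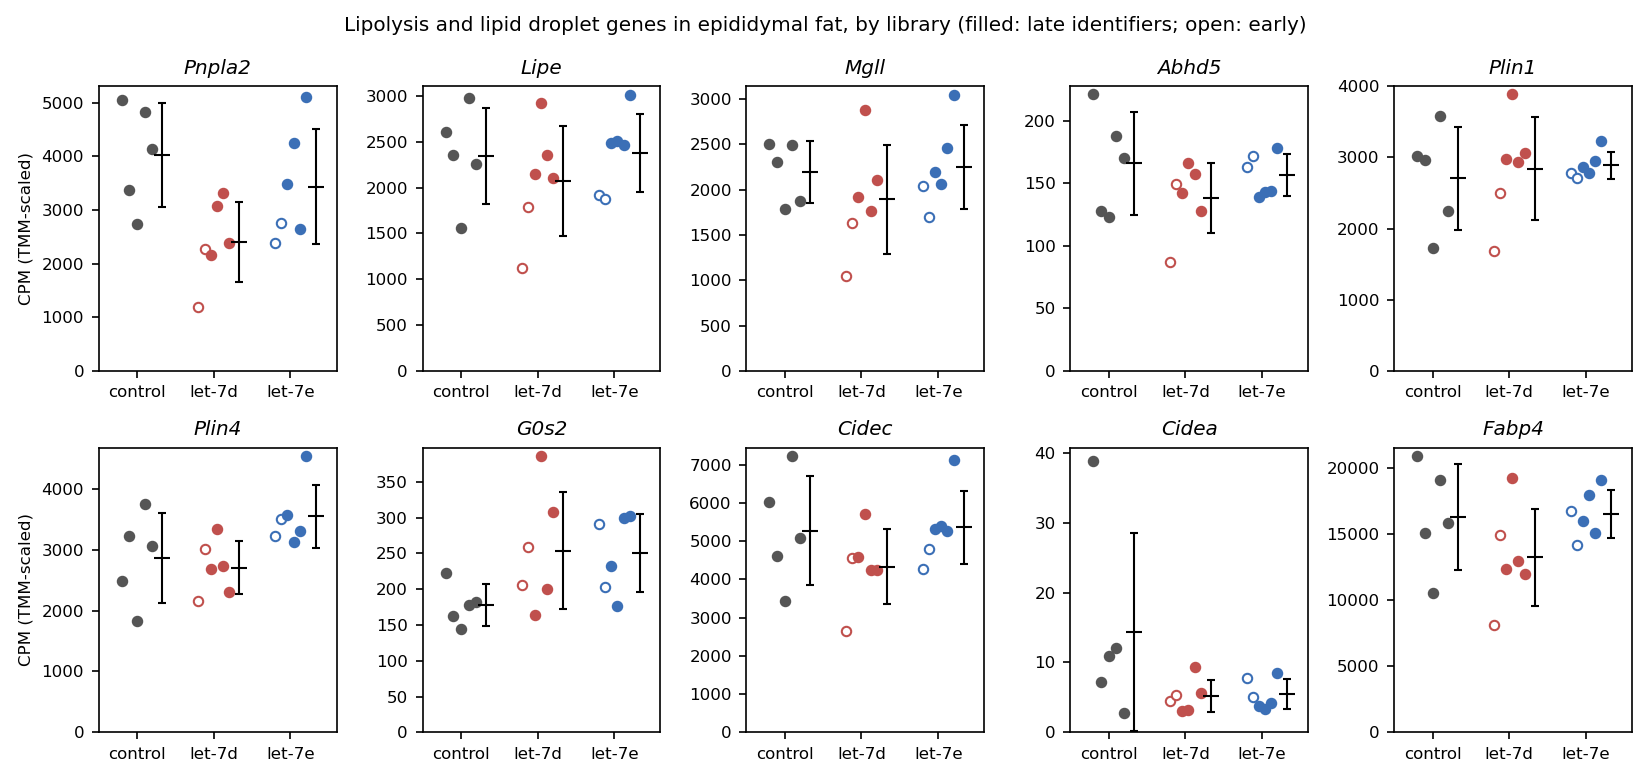
Level of each gene (y axis, CPM with TMM scaling, from 0) in the 17 libraries by group (x axis); filled points are libraries with late identifiers, open points those with early identifiers, and the black bar is the group mean ± SD. The Pnpla2 points of let-7d lie in the lower part of the panel, and the Cidea panel is dominated by control 1 at 38.8 CPM.

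Several features of the libraries touch the results that follow. By their identifiers 4 libraries are early, replicates 1 and 2 of each microRNA, and 13 are late, among them all controls, so this series was a term in each fit. That term alone was called for 2005 genes (12.2%). Markers of organs or cells beside the fat stood high in 4 libraries: vas deferens and epididymis markers summed to 17464 CPM and smooth muscle markers to 13185 CPM in control 3, spermatid markers to 1066 CPM in control 6, and epithelial markers to 518 CPM in let-7d 1 and 224 CPM in let-7d 5. Lymphocyte markers summed to 278 CPM in let-7d 2, which is not among the 4, and to 4.77 to 113 CPM elsewhere. As a check of the tissue label, all 8 fat cell markers were measured, and their sum ran from 10849 to 17177 CPM in controls, from 7085 (let-7d 1) to 14089 in let-7d and from 9192 to 22315 CPM in let-7e. In such bulk tissue, fewer fat cells and less RNA per fat cell cannot be told apart.

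The edgeR quasi-likelihood test, adjusted by the Benjamini-Hochberg method over 16452 genes, called none of the 10 genes in any of the 3 comparisons. It called 0 genes of the whole table (0%) in each. At an unadjusted p under 0.05 it had 1676 genes (10.2%) for let-7d against control, 1729 (10.5%) for let-7e against control and 1097 (6.67%) for let-7e against let-7d. DESeq2 called 10 (0.0632%), 15 (0.0987%) and 14 genes (0.115%), none of them among the 10, and limma-voom called 0 (0%). No gene of the 10 had groups that lay wholly apart, as 0.517%, 0.632% and 0.237% of all genes had. In let-7d against control, 2 of the 10 log2 fold changes were above 0 and 8 below, with a median of -0.12 beside -0.04 over all genes. In let-7e against control, which shares the controls, 7 were above 0 and 3 below, with a median of 0.17 beside -0.04. In let-7e against let-7d, 9 were above 0 and 1 below, with a median of 0.25 beside -0.01.

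**Figure D2:**
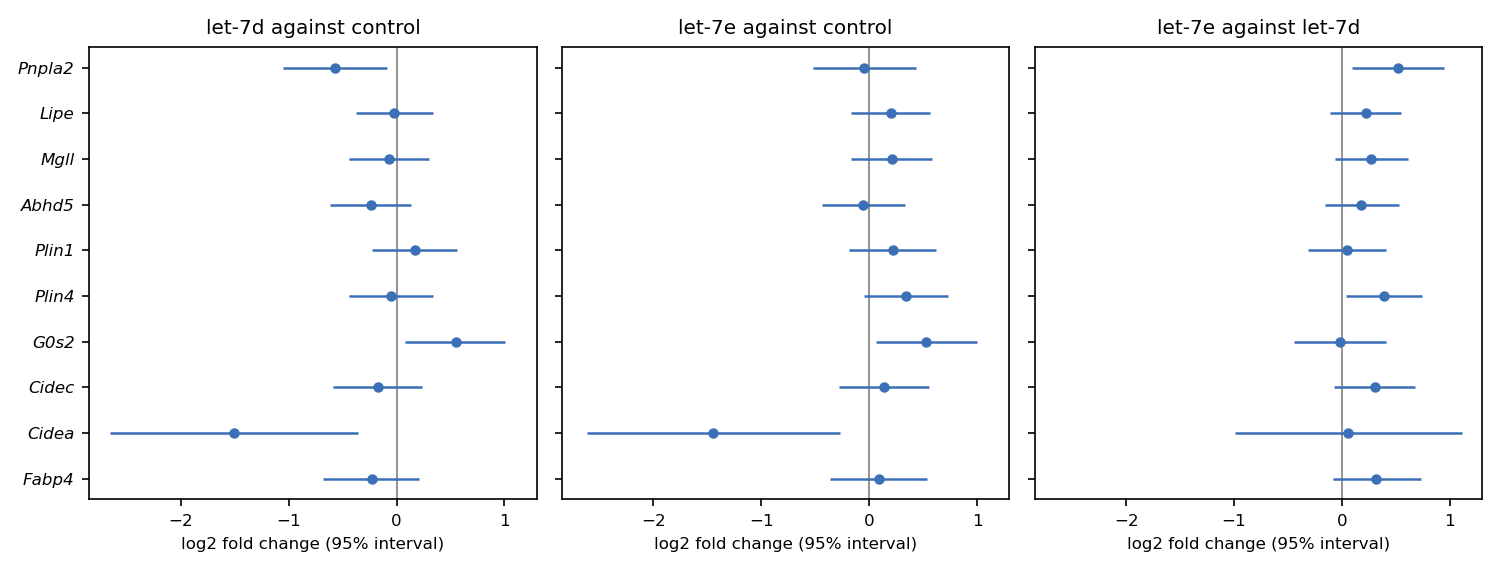
Log2 fold change of each gene (x axis; point with its 95% interval from edgeR, identifier series as a term) for the 3 comparisons. Intervals leave out 0 for Pnpla2, G0s2 and Cidea in let-7d against control and for G0s2 and Cidea in let-7e against control. For let-7e against let-7d those of Pnpla2 and Plin4 do so. None of these genes passed the adjustment over all genes. In the same order, 10.2%, 10.5% and 6.67% of all genes had an unadjusted edgeR p under 0.05.

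All 3 lipases had their lowest group mean in let-7d, as had Abhd5, Plin4, Cidec, Cidea and Fabp4. Of the 3 lipases, Pnpla2 had the largest fitted difference from control. Pnpla2 (ENSMUSG00000025509.15) lies at chr7:141455198-141460743 in GRCm38, the build of all positions given here. The 5 controls held 5048, 3375, 2744, 4822 and 4143 CPM (replicates 1, 2, 3, 4 and 6). The 6 let-7d libraries held 1184, 2277, 2168, 3071, 3318 and 2389 CPM, and the 6 let-7e libraries held 2382, 2748, 3477, 4244, 2647 and 5112 CPM. All 6 let-7d libraries lay below the control mean, but let-7d 4 and let-7d 5 overlapped with control 3 and let-7d 5 was close to control 2. The means were 2401 ± 754 CPM (SD, n = 6) for let-7d, 4027 ± 969 CPM (SD, n = 5) for controls and 3435 ± 1065 CPM (SD, n = 6) for let-7e. The log2 fold change of let-7d against control was -0.57 (SE 0.225, 95% interval -1.05 to -0.09, edgeR adjusted p = 0.468). It was -0.05 (SE 0.225, interval -0.52 to 0.43) for let-7e against control and 0.52 (SE 0.204, edgeR adjusted p = 0.700) for let-7e against let-7d. Without the 4 libraries with high levels of other markers, the let-7d value was -0.71, and with late libraries only it was -0.55.

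Lipe and Mgll, the enzymes of the later steps, had let-7d values close to control once the series was accounted for. Lipe (ENSMUSG00000003123.15) lies at chr7:25379527-25398710 and Mgll (ENSMUSG00000033174.17) at chr6:88724412-88828360. Lipe stood at 2350 ± 524 CPM in controls (1555 to 2974), 2074 ± 599 CPM in let-7d (1127 to 2929) and 2380 ± 424 CPM in let-7e (1881 to 3015). Its log2 fold change was -0.02 (SE 0.171, interval -0.38 to 0.34) with let-7d and 0.20 (SE 0.173, interval -0.17 to 0.56) with let-7e. Mgll stood at 2191 ± 342, 1891 ± 603 and 2248 ± 462 CPM in the same order, and its log2 fold change was -0.07 (SE 0.175) with let-7d and 0.21 (SE 0.177) with let-7e. The groups overlapped for both genes, and the lowest library of both was let-7d 1, at 1127 CPM of Lipe and 1051 CPM of Mgll. Mgll, the only gene of the 10 with a let-7 seed match in its 3′ UTR, differed between injected and control groups by less than its spread. The intervals still allow a change of Mgll of -0.44 to 0.30 with let-7d and of -0.17 to 0.58 with let-7e on the log2 scale.

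With the identifier series, 1 of the 10 genes was called, Lipe, a share near the 12.2% of all genes. In the 4 early libraries Lipe stood at 1679 ± 372 CPM (1127 to 1920) against 2501 ± 329 CPM (2103 to 3015) in the 8 late libraries of the injected groups, with no overlap, as for 6.13% of all genes that lay wholly lower in the early libraries. The series term of the fit was -0.58 for Lipe (SE 0.169, edgeR adjusted p = 0.0327). Without passing, it was -0.54 for Mgll (SE 0.173, adjusted p = 0.0548) and -0.63 for Pnpla2 (SE 0.221, edgeR adjusted p = 0.0809). The term was below 0 for 9 of the 10 genes, the exception being Cidea at 0.14. What the identifiers stand for is not given in the sources used here.

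Of the regulators of Pnpla2, the activator Abhd5 was close to even across groups, and the inhibitor G0s2 had a higher mean with either microRNA, without passing the test. Abhd5 (ENSMUSG00000032540.16) lies at chr9:122351608-122381524 and G0s2 (ENSMUSG00000009633.3) at chr1:193272161-193273217. Abhd5 stood at 166 ± 41.4 CPM (SD, n = 5) in controls, 138 ± 28.2 CPM (SD, n = 6) in let-7d and 156 ± 16.8 CPM (SD, n = 6) in let-7e, and its log2 fold change against control was -0.24 (SE 0.177) with let-7d and -0.06 (SE 0.181) with let-7e. G0s2 was at 223, 162, 144, 178 and 182 CPM in controls. The let-7d libraries held 206, 259, 164, 386, 201 and 308 CPM, and the let-7e libraries 291, 203, 232, 176, 299 and 303 CPM. In each injected group 5 of 6 libraries lay above the control mean, and both groups overlapped with the controls at their lower end. The log2 fold change was 0.55 for let-7d (SE 0.220, 95% interval 0.08 to 1.01, edgeR adjusted p = 0.470) and 0.53 for let-7e (SE 0.222, 0.06 to 1.00, edgeR adjusted p = 0.426). Between let-7e and let-7d it was -0.02 (SE 0.199, interval -0.44 to 0.41). G0s2 lies within the span of Lamb3 on the opposite strand, and whether counting used the strand is not given in the sources used here. Lamb3 itself stood at 8.04 CPM on average.

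The inhibitor and its target were then compared within each library, a ratio that does not depend on the scaling between libraries. In controls G0s2 came to 4.42%, 4.81%, 5.25%, 3.69% and 4.40% of the CPM of Pnpla2. In let-7d it came to 17.4%, 11.4%, 7.57%, 12.6%, 6.04% and 12.9%. In let-7e it came to 12.2%, 7.40%, 6.68%, 4.14%, 11.3% and 5.93%. All 6 let-7d libraries lay above all 5 controls, and of the let-7e libraries only let-7e 4 fell among them. The means were 4.52 ± 0.580% (SD, n = 5), 11.3 ± 4.07% (SD, n = 6) and 7.95 ± 3.16% (SD, n = 6). Because no control is early, the test used the 4 late let-7d libraries and the 5 controls. The ratio was 2.07-fold higher in let-7d, a log2 difference of 1.05, at an exact permutation p of 0.00794 (two-sided), the smallest that 126 arrangements can give. Adjusted over the 9 ratio tests, the exact permutation p was 0.0714, which misses the threshold of 0.05. With let-7d 1 or let-7d 2 left out, which take no part in this test but do in others of the 9, the adjusted exact permutation p was 0.0429. For let-7e against control the log2 difference was 0.55 (exact permutation p = 0.0714, adjusted p = 0.167), and for let-7e against let-7d it was -0.52 (exact permutation p = 0.110 within series, adjusted p = 0.167). Separation of this kind was not rare for a ratio to Pnpla2: 494 genes (3%) had a ratio to Pnpla2 that was higher in all let-7d libraries than in all controls, against 8 genes (0.0486%) for let-7e. Without the 4 libraries the let-7d difference was 1.32, but 3 libraries against 3 cannot go below an exact permutation p of 0.1.

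**Figure D3:**
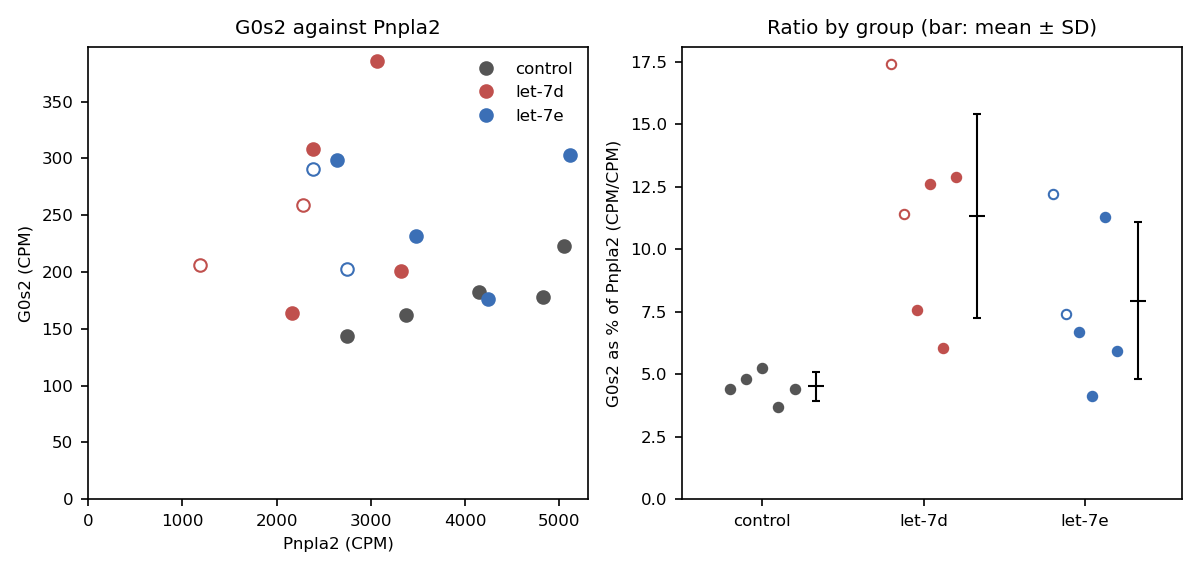
Left, G0s2 (y axis, CPM) against Pnpla2 (x axis, CPM), 1 point a library; right, G0s2 as a percentage of Pnpla2 by group, with mean ± SD as black bars; open points are early libraries. The controls lie between 3.69% and 5.25% and the let-7d libraries between 6.04% and 17.4%.

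The bases before the start of both genes are shown because these are the members of the ratio just described (RefSeq, GRCm38.p6, 5′ to 3′ on the strand of the gene). For Pnpla2 they are chr7:141454938-141455187 on the plus strand, and for G0s2 chr1:193273218-193273438 on the minus strand. Neither window held a match to the 5 motifs described below, so no letters are in capitals.
Pnpla2 upstream: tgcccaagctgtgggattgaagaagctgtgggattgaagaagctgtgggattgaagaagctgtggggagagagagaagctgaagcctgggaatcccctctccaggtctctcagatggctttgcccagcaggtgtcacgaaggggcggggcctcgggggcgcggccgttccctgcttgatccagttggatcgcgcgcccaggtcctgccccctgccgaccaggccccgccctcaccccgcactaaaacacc
G0s2 upstream: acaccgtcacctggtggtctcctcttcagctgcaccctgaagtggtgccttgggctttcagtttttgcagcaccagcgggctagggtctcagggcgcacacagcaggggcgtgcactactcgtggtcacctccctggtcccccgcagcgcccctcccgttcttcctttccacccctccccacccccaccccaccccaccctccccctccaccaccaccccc
Both are rich in G and C, at 63.2% and 67.2% of bases.

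Neither droplet coat protein, Plin1 or Plin4, was called against control, and the ranges of the groups overlapped for both. Plin1 (ENSMUSG00000030546.14) lies at chr7:79720218-79732903 and Plin4 (ENSMUSG00000002831.14) at chr17:56100591-56109803. Plin1 stood at 2703 ± 723 CPM (SD, n = 5) in controls, 2843 ± 727 CPM (SD, n = 6) in let-7d and 2888 ± 188 CPM (SD, n = 6) in let-7e. Its log2 fold changes were 0.17 (SE 0.185) with let-7d and 0.22 (SE 0.190) with let-7e. The let-7e libraries lay close together, between 2715 and 3235 CPM, whereas controls ran from 1723 (control 3) to 3577 CPM. Plin4 was at 2481, 3223, 1820, 3753 and 3055 CPM in controls, and at 2151, 3005, 2683, 3341, 2734 and 2306 CPM in let-7d. In let-7e it was at 3229, 3507, 3566, 3130, 3307 and 4539 CPM. All 6 let-7e libraries lay above the means of controls and of let-7d, although the ranges overlapped. The log2 fold change of Plin4 was 0.34 for let-7e against control (SE 0.182, edgeR adjusted p = 0.521), 0.39 for let-7e against let-7d (SE 0.165, edgeR adjusted p = 0.709) and -0.05 for let-7d against control (SE 0.182).

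Within libraries, Plin4 came to 82.4%, 109%, 106%, 105% and 136% of the CPM of Plin1 in controls, not scaled for transcript length. In let-7d it came to 128% and 120% in the early libraries and 90.2%, 85.8%, 93.0% and 75.2% in the late ones. In let-7e it came to 116% and 129% in the early libraries and 124%, 112%, 112% and 140% in the late ones. The late let-7d and let-7e libraries did not overlap, as 5.01% of all genes lay wholly higher in late let-7e by their ratio to Plin1, and the early ones did overlap. The log2 difference between let-7e and let-7d was 0.33 (exact permutation p = 0.0190 within series, adjusted p = 0.0857). Without let-7d 1 or let-7d 2 the adjusted exact permutation p was 0.0429. Against control it was -0.31 for let-7d (exact permutation p = 0.0794, adjusted p = 0.167) and 0.20 for let-7e (exact permutation p = 0.206, adjusted p = 0.265).

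Plin1 was the gene with 2 matches to the C/EBP motif. The nearer match lies inside a longer annotated transcript and is not shown, and the stretch upstream of that transcript is given with the farther match in capitals (RefSeq, GRCm38.p6, chr7:79732904-79733026, minus strand).
Plin1 upstream: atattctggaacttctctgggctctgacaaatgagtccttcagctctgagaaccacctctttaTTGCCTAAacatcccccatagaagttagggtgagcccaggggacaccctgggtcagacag
RefSeq promoters, 250 bases before and 50 after the start, were found for 8 of the 10 genes with 11 entries, and both strands were searched in the bases before the start. TTGCNNAA, a form of the C/EBP motif, was in promoters of Plin1 and Cidec and in 9.56% of all 32851 promoters. GTAAACA, a FOXO motif, was in promoters of Lipe and Mgll and in 3.17% of all. CACGTG, an E-box, was in promoters of the same genes and in 6.02% of all. A PPAR element, AGGNCA repeated after 1 base, and TGACGTCA, a cyclic AMP response element, were in none of the 11 and in 0.338% and 1.55% of all. These are matches of letters, which say nothing of binding in this tissue.

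Cidec (ENSMUSG00000030278.11, chr6:113424634-113435760), which helps to form the large single droplet of white fat cells, stood at 5272 ± 1432 CPM (SD, n = 5) in controls, 4331 ± 984 CPM (SD, n = 6) in let-7d and 5357 ± 965 CPM (SD, n = 6) in let-7e. Its log2 fold changes against control were -0.17 (SE 0.195) and 0.14 (SE 0.196), and 0.31 (SE 0.177) for let-7e against let-7d. Its relative Cidea (ENSMUSG00000024526.9), best known from brown fat, was at 38.8, 7.17, 10.9, 12.1 and 2.78 CPM in controls. The let-7d libraries held 4.51, 5.37, 3.02, 3.24, 9.42 and 5.65 CPM, and the let-7e libraries 7.80, 5.09, 3.81, 3.30, 4.27 and 8.50 CPM. All 12 libraries of the injected groups lay below the control mean, but control 1 stood apart from every other library and control 6 was the lowest of all 17. The log2 fold change was -1.51 with let-7d (SE 0.541, 95% interval -2.66 to -0.36, edgeR adjusted p = 0.456) and -1.45 with let-7e (SE 0.554, -2.62 to -0.27, edgeR adjusted p = 0.396). Without control 1 these values were -0.70 and -0.64. Between let-7e and let-7d it was 0.06 (SE 0.493).

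Relative to Cidec, Cidea came to 0.646% in control 1 and to 0.0546% to 0.318% in the other controls. It came to 0.0569% to 0.221% in let-7d and 0.0610% to 0.183% in let-7e, within the range of the controls. The log2 differences of the ratio were -0.93 for let-7d (exact permutation p = 0.262, adjusted p = 0.295) and -1.27 for let-7e against control (exact permutation p = 0.111, adjusted p = 0.167). The gene with the pattern most like Cidea over the 17 libraries was Cox8b, a cytochrome oxidase subunit of brown fat and muscle, at r = 0.927, followed by Mr1 (0.872), Entpd5 (0.870), Pdk1 (0.860) and Acat2 (0.852) out of 14544 genes compared. Cox8b was at 70.6 CPM in control 1 and at 3.03 to 19.4 CPM elsewhere, so control 1 was the highest library for both genes. Over the 13 late libraries, which include control 1, r with Cox8b was 0.933. Of 8 brown and beige fat cell markers, Ucp1 was not among the genes left after the authors' CPM filter. The other 7 summed to 187 CPM in control 1 and to 46.5 to 136 CPM in the other libraries. The sum ran from 62.8 to 187 CPM in controls, 46.5 to 113 in let-7d and 50.1 to 122 CPM in let-7e. Without Cox8b it was 116 CPM in control 1, 117 in control 4 and 112 in let-7e 5. Control 1 thus did not stand apart by the sum of the other markers, though single markers differed. Ppargc1a was at 4.18 and Dio2 at 1.37 CPM in control 1, near their means of 4.42 and 1.52 CPM. Cox7a1 was at 7.68 CPM there and higher in let-7d 4, at 8.44 CPM. Elovl3, scarce at a mean of 0.437 CPM, was highest in control 1 at 2.41 CPM, against at most 1.08 CPM elsewhere. The lipid synthesis genes Fasn and Acly, named here after their values were seen, were also highest in control 1, at 33486 and 3853 CPM, against at most 20716 and 1832 CPM elsewhere. Their part in the Cidea result was not tested. Cidea overlaps the opposite-strand transcript B430212C06Rik, which stood at 5.39 CPM in control 1 and 1.97 to 8.54 CPM elsewhere.

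Fabp4 (ENSMUSG00000062515.3, chr3:10204088-10208576), the third most abundant transcript by CPM in the table, stood at 16322 ± 3999 CPM (SD, n = 5) in controls, 13278 ± 3664 CPM (SD, n = 6) in let-7d and 16549 ± 1823 CPM (SD, n = 6) in let-7e. Its values ran from 8172 CPM in let-7d 1 to 20947 CPM in control 1, with overlap between all groups. The log2 fold change was -0.23 (SE 0.210) with let-7d, 0.09 (SE 0.211) with let-7e and 0.32 (SE 0.190) for let-7e against let-7d.

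The genes varied together from library to library. Pearson's r and Spearman's rho of log2 CPM over the 17 libraries were computed for all 45 pairs, with permutation p-values adjusted over the 45. By Pearson's r 25 pairs passed at an adjusted permutation p under 0.05, and by Spearman's rho 20 did. All of these lay among the 8 genes other than G0s2 and Cidea, whose 28 pairs had r from 0.51 to 0.93 (median 0.78). The highest was between Lipe and Cidec, at r = 0.93 and rho = 0.89 (permutation p = 1e-05 for each, the smallest that 100000 resamples can give; adjusted p = 0.00015 and 0.000225). Cidec with Fabp4 (r = 0.91, rho = 0.89) and Lipe with Mgll (r = 0.91, rho = 0.86) followed. Pnpla2 was correlated with Cidec (r = 0.85, rho = 0.78), Lipe (0.83, 0.80) and Fabp4 (0.82, 0.72), with adjusted permutation p from 0.000225 to 0.00599. Its r of 0.53 with Plin1 and 0.51 with Plin4 missed the threshold (adjusted permutation p = 0.0578 and 0.0581). The share of passing pairs among other genes was not computed. The count of 25 therefore does not show that varying together is particular to these genes.

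G0s2 and Cidea had no pair that passed over the 17 libraries. The 9 pairs with G0s2 had r from -0.10 to 0.46, the highest with Plin1 (rho = 0.35, adjusted permutation p = 0.0917 for r). G0s2 and its target Pnpla2 gave r = -0.07 and rho = -0.09 (permutation p = 0.798 and 0.725). The 9 pairs with Cidea had r from -0.18 to 0.43, the highest with Abhd5 (rho = 0.25, adjusted permutation p = 0.130 for r). That changed for a few pairs under other settings. Over the 13 late libraries G0s2 passed with Mgll (r = 0.67, adjusted permutation p = 0.0295) and Plin1 (r = 0.60, adjusted permutation p = 0.0495). On deviations from the group and series fit it passed with Mgll (r = 0.76, adjusted permutation p = 0.00111) and Fabp4 (r = 0.55, adjusted permutation p = 0.0335), and its 9 pairs had a median r of 0.45. Without the 4 libraries high in other markers Cidea passed with Abhd5 (r = 0.73, adjusted permutation p = 0.0234).

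**Figure D4:**
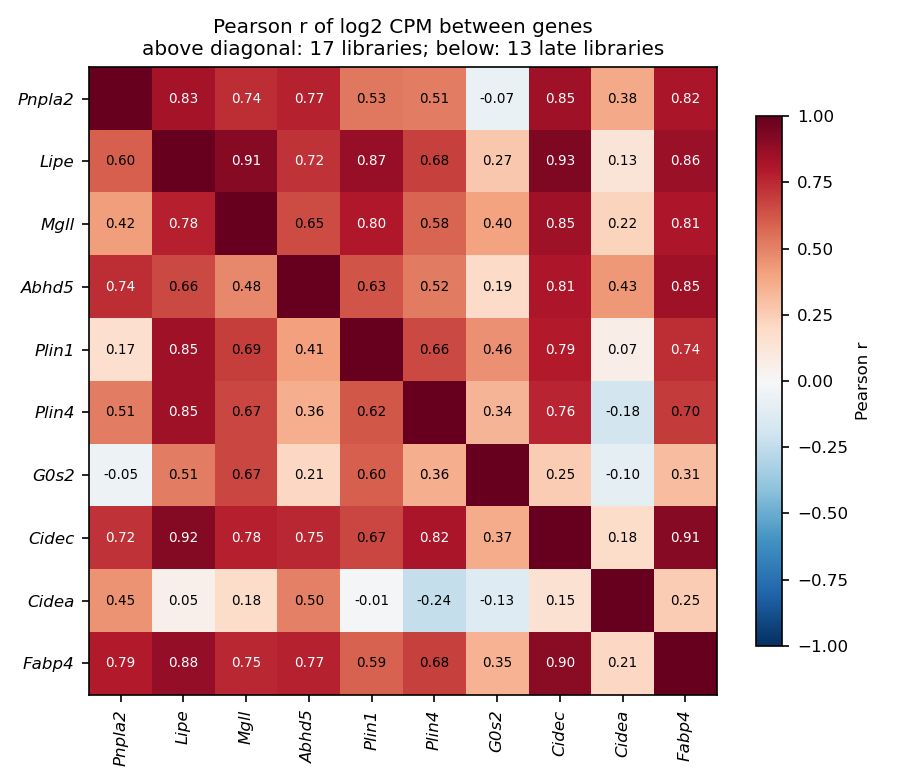
Pearson r of log2 CPM between each pair of genes (both axes list the genes; colour scale from -1 to 1), over all 17 libraries above the diagonal and over the 13 late libraries below it. Above the diagonal, pairs with G0s2 or Cidea reach at most r = 0.46, while the other genes reach 0.93. Below the diagonal, G0s2 reaches 0.67 (with Mgll) and Cidea 0.50 (with Abhd5), while the other genes reach 0.92.

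Most correlations were lower without the most extreme libraries. The library let-7d 1 was among the 2 farthest from the median of the first gene of the pair in 41 of the 45 pairs. Pairs with the same first gene, in the order of the list of genes, share these 2 libraries. Leaving out the 2 farthest libraries lowered the range over the 28 pairs to 0.18 to 0.85 (median 0.62). For Lipe and Cidec r was then 0.83, for Cidec and Fabp4 0.85, for Lipe and Mgll 0.85 and for Pnpla2 and Plin1 0.18. Leaving out the extremes of a gene narrows its range, which can lower r by itself. The drop therefore does not show how far the correlations rest on these libraries. Over the 13 late libraries the range over the 28 pairs was 0.17 to 0.92 (median 0.71), and 24 of all 45 pairs passed. On deviations from the group and series fit the range over the 28 was 0.53 to 0.94 (median 0.82). Of all 45 pairs 30 then passed, with a permutation that takes no account of the terms fitted. Without the 4 libraries high in other markers 12 of all 45 pairs passed, and the 28 pairs had a median r of 0.62.

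The genes also followed the general level of fat cell transcripts. Against the mean log2 CPM of the 8 fat cell markers (Adipoq, Retn, Cfd, Adig, Slc2a4, Pparg, Cebpa and Acvr1c), r over the 17 libraries was 0.90 for Fabp4, 0.82 for Cidec and Abhd5, 0.81 for Pnpla2 and Lipe, 0.75 for Plin1, 0.71 for Mgll and 0.50 for Plin4, as a description. It was 0.35 for Cidea and 0.20 for G0s2. That marker level was lowest in let-7d 1, at 8.67, then in control 3 at 9.02, and highest in control 1 at 9.84 log2 CPM. Once each gene was taken relative to it, an alternative added after the data were seen, 6 of the 45 pairs passed, and the 28 pairs had r from -0.27 to 0.80 (median 0.45). Lipe with Mgll (0.80) and Lipe with Cidec (0.79) stayed high. Pnpla2 with G0s2 came to -0.53, which did not pass, as no pair with G0s2 did on this scale. Of 14544 genes at 1 CPM or more on average, those most like the mean of the 10 were Cog4 (r = 0.954), Pgm1 (0.949), Agpat3 (0.948), Tmem120b (0.939) and Mfn2 (0.938).

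**Figure D5:**
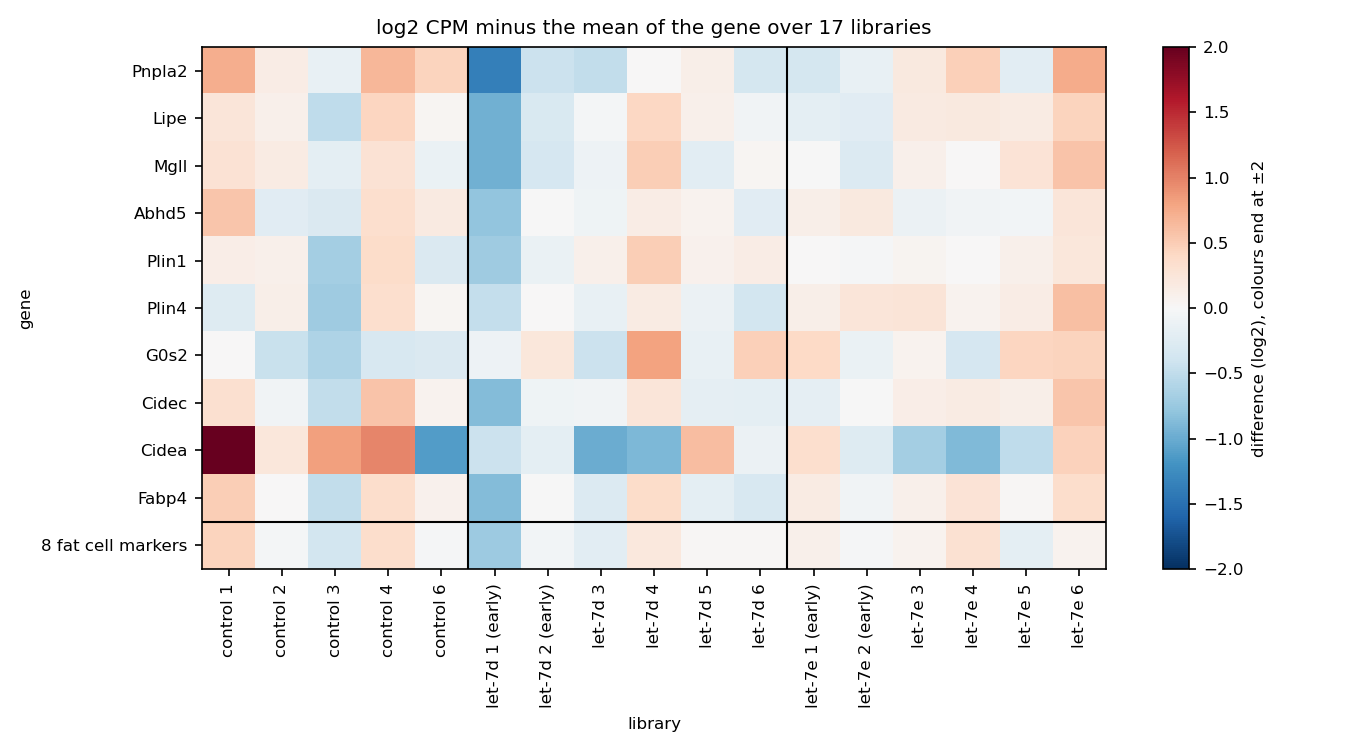
Log2 CPM of each gene (rows) in each library (columns, grouped by control, let-7d and let-7e) minus its mean over the 17 libraries, with the mean of the 8 fat cell markers in the bottom row; colours end at ±2. The let-7d 1 column holds the lowest value of 7 genes (all but Plin4, G0s2 and Cidea) and of the marker row, and the Cidea row holds the widest range of values.

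On the same scale, relative to the fat cell markers, Pnpla2 and G0s2 were the genes of the 10 whose let-7d values did not overlap with the controls, as 41 of all genes (0.249%) did not on this scale. The scale was added after the data were seen. Pnpla2 lay 1.54 to 2.29 log2 units above the marker level in the 6 let-7d libraries (1.81 to 2.29 in the 4 late ones) and 2.36 to 2.65 above it in controls. The difference between the late libraries and the controls was -0.47 (exact permutation p = 0.00794, the smallest possible). G0s2 lay between -1.82 and -0.98 in the 6 let-7d libraries and between -2.27 and -1.85 in controls, a difference of 0.57 over late libraries (exact permutation p = 0.00794). Adjusted over the 30 such tests, both had p = 0.119 by the exact permutation test and so missed the threshold. The other 8 genes overlapped in every comparison, with exact permutation p of at least 0.0556 against control. For let-7e against control, Pnpla2 differed by -0.05 and G0s2 by 0.50, both with overlap.

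The rest of the pathway was followed in 4 lists, of which none had a gene that passed in any comparison (0% of all genes did). Their medians stand beside medians over all genes of -0.04 with either microRNA and -0.01 for let-7e against let-7d. Of 18 genes of other droplet proteins, Cideb and Hsd17b13 were not among the genes left after the authors' CPM filter. Of the 16 measured, 6 were above 0 and 10 below with let-7d (median -0.05). With let-7e 5 were above 0 and 11 below (median -0.02). Plin2, the coat protein of small droplets, stood at 490 ± 269 CPM in controls, with its highest value in control 1, and at 422 ± 101 and 404 ± 48.0 CPM in let-7d and let-7e. Plin5 (15.7 ± 9.57 CPM in controls) and Hilpda (8.51 ± 3.50 CPM), another inhibitor of Pnpla2, were scarce. Against control Plin5 came to -0.27 (SE 0.411) with let-7d and -0.21 (SE 0.400) with let-7e, and Hilpda to 0.02 (SE 0.249) and 0.33 (SE 0.252). Bscl2 (seipin), which shapes forming droplets, was at -0.06 (SE 0.237) and -0.07 (SE 0.243).

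Of 16 other lipases and genes of lipid uptake, 4 were above 0 and 12 below with let-7d (median -0.10), 9 above and 7 below with let-7e (median 0.05), and 13 above and 3 below for let-7e against let-7d (median 0.18). Lpl, which frees fatty acids in the capillary, came to 0.35 (SE 0.217) with let-7d and 0.40 (SE 0.219) with let-7e. Ces1d, another triglyceride hydrolase, stood at -0.44 (SE 0.254) with let-7d and 0.11 (SE 0.252) with let-7e, and Aqp7, the glycerol channel, at -0.13 (SE 0.187) and 0.26 (SE 0.187). Cd36, the fatty acid transporter, stood at -0.05 and 0.23 (SE 0.162 for each), and Angptl4, an inhibitor of Lpl, at -0.01 and 0.32 (SE 0.161 for each). For let-7e against let-7d, 6 of the 16 had an unadjusted edgeR p under 0.05, among them Ces1d (0.55), Aqp7 (0.39) and Angptl4 (0.34), beside 6.67% of all genes.

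Of 11 genes of triglyceride synthesis, 2 were above 0 and 9 below with let-7d (median -0.16), and 3 above and 8 below with let-7e (median -0.08). Pck1, which supplies glycerol phosphate to re-esterify fatty acids, came to -0.80 with let-7d (SE 0.322, edgeR adjusted p = 0.469), a larger difference than that of Pnpla2, and to -0.14 with let-7e (SE 0.320). It was at 5886, 3411, 2780, 6917 and 5357 CPM in controls and at 799, 2626, 2609, 3693, 3266 and 1520 CPM in let-7d, so the groups overlapped. Dgat2, of the last step of synthesis, came to 0.63 (SE 0.341) and 0.26 (SE 0.351), Dgat1 to -0.22 (SE 0.243) and -0.14 (SE 0.251), and Gpam to -0.29 (SE 0.183) and -0.01 (SE 0.188).

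Of 15 regulators of lipolysis, 9 were above 0 and 6 below with let-7d (median 0.03), and 10 above and 5 below with let-7e (median 0.12). The adrenergic receptor Adrb3, through which lipolysis is started, was at 0.02 (SE 0.210) and 0.42 (SE 0.215). Pde3b, which breaks down cyclic AMP after insulin, was at -0.27 (SE 0.174) and 0.08 (SE 0.175), and Prkar2b, a regulatory subunit of protein kinase A, at 0.17 (SE 0.229) and 0.34 (SE 0.230). Pparg, the fat cell transcription factor, was at 0.19 (SE 0.173) and 0.16 (SE 0.175). Of the hormones of fat cells, Adipoq was at -0.31 (SE 0.207) and 0.16 (SE 0.207), and Lep at 1.10 (SE 0.510, edgeR adjusted p = 0.484) and 0.66 (SE 0.504). Over the libraries Lep had an r of -0.61 with Pnpla2 and 0.44 with G0s2, as a description, while Adipoq had 0.82 and 0.12.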

How the data were processed

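Read counts per Ensembl gene were deposited by the authors as whole numbers after a CPM filter whose threshold is not stated; per the submitters' processing notes, reads were aligned with STAR to GRCm38.p6. The counting tool, its use of strand and the STAR version are not given in the sources used here. The deposited RPKM table was not used, because the gene lengths it implies differ between libraries. Symbols came from GENCODE M21 (16438 of 16452 identifiers matched without version numbers, 15941 with them).

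Counts were scaled with TMM and tested with edgeR 4.0.16 (quasi-likelihood, R 4.3.3) on all 17 libraries, with group and identifier series as terms; filterByExpr removed 0 genes. P-values are two-sided and adjusted by the Benjamini-Hochberg method over 16452 genes at a threshold of 0.05. A prior count of 2 was added for log2 CPM. Group means cover all libraries, while fold changes account for the series. Ratios were tested by exact permutation (late libraries against control, within series otherwise), and correlations with 100000 resamples in scipy 1.17.1. Intervals cover the spread between libraries, and total counts of 12717365 to 28972306 set the counting precision. The alternatives tried were a filter at a mean of 5 CPM, the size factors of DESeq2, DESeq2 1.42.0, limma-voom (limma 3.58.1) with quality weights, the replicate block, no series term, late libraries only, 4 libraries left out, and each library left out. The pipeline was tested on simulated data. No 2 libraries of a group matched within sampling noise (lowest chi-square over its degrees of freedom 15.35, for let-7d 3 and 6).

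Named genes were the 10 members, 19 pathway genes whatever their values, and the 5 genes most like the members' mean and most like Cidea; exceptions are marked. The members, lists and alternatives were chosen with earlier results of these data known.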

Additional observations from a re-analysis of the deposited data

Results flagged for a closer look

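In 39 groups of levels and ratios, the highest and lowest library were set against the rest by Dixon's test, which flags about 1 in 20 groups by chance. A single value stood apart: Plin4 in let-7e 6, at 4539 CPM against 3130 to 3566 CPM in the other let-7e libraries, with a gap of 0.650 of the group's range on the log2 scale. The same library held the highest let-7e value of each of the 10 genes, among them Pnpla2 (5112 CPM), Lipe (3015 CPM) and Cidec (7121 CPM). Its fat cell marker level of 9.47 log2 CPM was not the highest of the group. Cidea in control 1, at 38.8 CPM, did not pass the same test on the log2 scale, where the 5 controls are spread out.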

How the results depend on the processing

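No gene of the 10 passed the threshold under any alternative run on the edgeR fits, DESeq2 or limma-voom, and for let-7d against control the signs of Pnpla2, G0s2 and Cidea held in all of them. The DESeq2 Wald test called 10 genes in let-7d against control, 15 in let-7e against control and 14 in let-7e against let-7d, where edgeR called 0 in each; the cause was not tested. Leaving out each library in turn gave 0 calls throughout, with 1065 to 2713, 1194 to 2739 and at most 1568 genes at an unadjusted p under 0.05.

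Over 16 pairs of libraries with the same replicate number, deviations from the group and series fit correlated at -0.492 to 0.43, over 0.1 in 6. Pairs of unlike number were not set beside them, so whether the numbers pair the libraries cannot be told from this. With the replicate block there were 0 calls, and log2 fold changes near 0 changed sign: Lipe (0.08), Mgll (0.07) and Plin4 (0.01) with let-7d, Pnpla2 (0.05) and Abhd5 (0.00) with let-7e, and G0s2 (0.01) for let-7e against let-7d.

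With late libraries only, Lipe with let-7d came to 0.03, and Plin1 and Cidea for let-7e against let-7d to -0.11 and -0.10. With limma-voom, Plin1 with let-7d came to -0.05, and Lipe, Plin1, Cidec and Fabp4 with let-7e to -0.03, -0.04, -0.12 and -0.13. Without the 4 libraries those 4 came to -0.00, -0.05, -0.06 and -0.11 with let-7e, Plin1 to -0.07 for let-7e against let-7d, and the Cidea to Cidec ratio of let-7e against let-7d to 0.14. Relative to fat cell markers, Lipe, Mgll and Plin4 with let-7d came to 0.11, 0.04 and 0.05, and Plin1 and Cidea for let-7e against let-7d to -0.12 and -0.10. None of these values had passed a test, and the causes of the sign changes were not tested.

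Leaving out each library, the log2 fold changes that crossed 0 ranged from -0.12 to 0.09 (Lipe) and -0.16 to 0.08 (Plin4) with let-7d, from -0.16 to 0.07 (Pnpla2), -0.14 to 0.07 (Abhd5) and -0.01 to 0.21 (Fabp4) with let-7e, and from -0.05 to 0.13 (Plin1), -0.12 to 0.13 (G0s2) and -0.17 to 0.35 (Cidea) for let-7e against let-7d. Over the same settings, Pnpla2 with let-7d ranged from -0.66 to -0.47, G0s2 from 0.37 to 0.68, and Cidea from -1.87 to -0.70. The ratio of G0s2 to Pnpla2 in let-7d against control ranged from 0.89 to 1.26, and that of Plin4 to Plin1 in let-7e against let-7d from 0.26 to 0.41. Without let-7d 1 or let-7d 2 the adjusted exact permutation p of both ratios was 0.0429, past the threshold, since the p of the Plin4 ratio then fell to 0.00952 and all 9 were adjusted together. Of the 45 correlations, 12 passed without the 4 libraries and 6 relative to fat cell markers, against 25; fewer libraries take part in the former.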
